A study of Homo sapiens with 18 samples.

Results

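The 31 genes described here are the enzymes and regulators of cholesterol and fatty acid synthesis that are driven by SREBP, the sterol regulatory element binding proteins. They were taken by name from 59251 genes in the count tables, and all 31 had enough counts to be tested. A set of 18 sterol enzymes, a set of 5 genes that holds 4 regulators and a sterol carrier (together the regulators) and a set of 8 fatty acid enzymes make up the 31. RNA was sequenced in 18 libraries, 3 in each of 6 groups, from Hap1, a near-haploid adherent human cell line derived from a chronic myeloid leukaemia. Of these, 12 came from cells labelled delSARS2+SARS2-1xFLAG, a name that gives a deletion of SARS2, the serine transfer RNA ligase of mitochondria, and an added SARS2 with 1 FLAG tag (the deleted line below). The kind of deletion and the promoter of the added gene are not stated in the labels. Its groups had 15 ng/mL doxycycline throughout, or no doxycycline for 3, 6 or 9 days. The other 6 came from the unmodified parental line, without and with doxycycline, and the labels give no number of days for the parental cells without it. All cells were grown with the drug before its removal, per the labels' protocols, and the labels do not say whether the deleted line is a single clone.

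Sterols are made from acetyl-CoA through mevalonate, isoprenoid diphosphates, squalene and lanosterol, and fatty acids from the same acetyl-CoA. SREBF2 and SREBF1 encode transcription factors that are held in the endoplasmic reticulum by SCAP and INSIG1 when sterols are plentiful, and are carried to the Golgi, cleaved and sent to the nucleus when sterols run low. INSIG1, SREBF2 and many of the enzyme genes are themselves SREBP targets.

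The label of the targeted gene was checked before the members. SARS2 had 30.5 to 32.4 CPM (counts scaled to the total of the library, with TMM factors) at day 3, 23.2 to 25.8 at day 6 and 34.0 to 48.1 at day 9 in the deleted line, against 23.5 to 25.2 with doxycycline, and it had 36.6 to 42.6 CPM without and 43.2 to 46.2 CPM with doxycycline in the parental line. In the deleted line SARS2 was thus above every doxycycline library at days 3 and 9 and overlapped them at day 6, whereas in the parental line every library without doxycycline was below every library with it. Reads of the transgene and of the deleted locus share 1 gene name, and the groups are given throughout as they are labelled. Libraries held 66850705 to 111123481 counts. NEAT1, a nuclear long RNA, moved with the groups, with 4.53 to 5.75 CPM at day 3, 13.0 to 18.2 at day 6 and at most 3.99 at day 9 against 6.65 to 7.22 with doxycycline in the deleted line, and 12.6 to 16.2 without against 3.70 to 4.28 with doxycycline in the parental line. Of 10 haematopoietic markers, 8 stayed under 1 CPM in every library, PTPRC and CD34 among them, and 2 had no count in any library. The summed haematopoietic markers, led by ITGA2B, were at 23.2 to 27.3 CPM at day 3, 39.0 to 44.2 at day 6, 17.4 to 27.0 at day 9 and 28.9 to 33.7 with doxycycline in the deleted line, and at 48.5 to 55.5 CPM without and 25.0 to 27.6 with doxycycline in the parental line. The 7 mesenchymal markers, led by VIM, summed to 765 to 792 CPM at day 3, 681 to 706 at day 6, 849 to 1130 at day 9 and 690 to 766 with doxycycline in the deleted line, and to 484 to 510 CPM without and 560 to 572 with doxycycline in the parental line. The 6 epithelial markers summed to 37.0 to 39.7 CPM at day 3, 34.8 to 48.2 at day 6, 55.5 to 63.2 at day 9 and 32.8 to 37.3 with doxycycline in the deleted line, and to 27.1 to 33.2 CPM without and 36.5 to 37.3 with doxycycline in the parental line, while 3 hepatocyte markers stayed at or under 1.11 CPM and 3 adipocyte markers at or under 0.0632 CPM. The part of NEAT1 and of the marker lists in the results below was not tested.

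Promoter windows of 4 genes are shown because these genes span the patterns described below: INSIG1 and SREBF2 as regulators, MSMO1 as the sterol enzyme with the deepest fall at day 9, and TM7SF2 as the sterol enzyme that went the other way. Each window runs from 250 bases before to 50 bases after the gene's start in RefSeq on GRCh38.p14, 5′ to 3′ on the plus strand, which is the strand of all 4 genes. Capitals mark CACNCCAC, the core of a sterol regulatory element, and CCAAT, the box bound by nuclear factor Y, each on either strand. The windows lie at chr7:155297628-155297927 (INSIG1), chr22:41832855-41833154 (SREBF2), chr4:165327419-165327718 (MSMO1) and chr11:65111622-65111921 (TM7SF2).
INSIG1: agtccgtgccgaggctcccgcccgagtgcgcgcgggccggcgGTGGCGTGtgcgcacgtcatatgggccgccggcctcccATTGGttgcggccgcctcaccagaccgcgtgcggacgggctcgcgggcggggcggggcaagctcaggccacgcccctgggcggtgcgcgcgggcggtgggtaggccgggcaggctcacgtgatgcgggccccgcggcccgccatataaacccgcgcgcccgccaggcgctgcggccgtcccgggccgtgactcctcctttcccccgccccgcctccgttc
SREBF2: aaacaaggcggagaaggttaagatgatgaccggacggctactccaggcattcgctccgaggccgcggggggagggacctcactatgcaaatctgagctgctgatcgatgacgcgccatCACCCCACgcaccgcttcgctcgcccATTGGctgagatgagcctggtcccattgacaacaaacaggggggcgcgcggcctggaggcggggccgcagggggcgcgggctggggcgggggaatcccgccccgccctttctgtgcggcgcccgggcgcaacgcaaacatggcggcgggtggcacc
MSMO1: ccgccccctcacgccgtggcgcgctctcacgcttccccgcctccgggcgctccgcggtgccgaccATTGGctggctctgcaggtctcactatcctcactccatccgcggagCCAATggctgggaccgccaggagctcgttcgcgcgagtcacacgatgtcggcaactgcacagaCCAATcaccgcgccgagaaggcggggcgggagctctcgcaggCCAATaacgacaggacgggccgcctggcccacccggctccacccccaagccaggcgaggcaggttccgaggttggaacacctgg
TM7SF2: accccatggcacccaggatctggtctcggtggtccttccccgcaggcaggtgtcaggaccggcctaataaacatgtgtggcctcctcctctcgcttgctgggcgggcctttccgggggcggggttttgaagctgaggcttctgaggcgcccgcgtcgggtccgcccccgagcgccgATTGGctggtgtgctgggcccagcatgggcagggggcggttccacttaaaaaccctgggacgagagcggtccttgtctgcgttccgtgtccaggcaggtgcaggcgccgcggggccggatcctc
INSIG1 and SREBF2 each held 1 match to the sterol element core and 1 CCAAT box, MSMO1 held 4 CCAAT boxes and no match to the core, and TM7SF2 held 1 CCAAT box and no match to the core. RefSeq windows were at hand for 27 of the 31 genes, and ACAT2, FDFT1, SQLE and FASN had none. Over all windows of a gene, on both strands, CACNCCAC was found in 6 of the 27 members (22.2%: IDI1, SC5D, SREBF2, INSIG1, ACACA and SCD) and in 7.05% of 27305 RefSeq genes. By class it was found in 2 of 15 sterol enzymes, 2 of 5 regulators and 2 of 7 fatty acid enzymes. The longer TCACNCCAC was found in 1 of 27 members (3.7%, SREBF2) and in 1.39% of all genes, and in no sterol enzyme. CCAAT was found in 21 of 27 members (77.8%) and in 39.7% of all genes, with 13 of 15 sterol enzymes, 3 of 5 regulators and 5 of 7 fatty acid enzymes. GGGCGG, the GC box, was found in 26 of 27 members (96.3%) and in 48.3% of all genes. The 27 members had 36 windows, and a match in any window of a gene counted. The RefSeq genes include genes that were not tested here, and no share over expressed genes was computed. The excess over all genes is therefore not shown to be particular to this pathway. No overlap between motifs was removed, and a match is a match of letters only.

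Per length of transcript, the members covered a wide range of levels in the deleted line with doxycycline. The highest was FDPS, farnesyl diphosphate synthase, at 206 ± 9.27 RPKM (reads scaled to transcript length and library size, SD, n = 3). SCD, the main fatty acid desaturase, followed at 176 ± 17.6 RPKM and EBP, a sterol isomerase, at 148 ± 10.1 RPKM, and SCD and EBP overlapped each other. FASN, the fatty acid synthase, stood at 133 ± 13.8 RPKM, with every library above those of ACAT2 at 80.8 ± 0.381 RPKM. From ACAT2 down to SREBF2, each gene's libraries overlapped those of the next gene in the order. Among the regulators, INSIG1 had 37.7 ± 7.2 RPKM, SREBF2 27.8 ± 3.24 RPKM, SREBF1 22.9 ± 2.02 RPKM, SCAP 14.1 ± 0.621 RPKM and STARD4 9.19 ± 1.39 RPKM. The lowest of the 31 was MVK, mevalonate kinase, at 7.78 ± 0.551 RPKM, whose libraries overlapped those of STARD4.

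**Figure D1:**
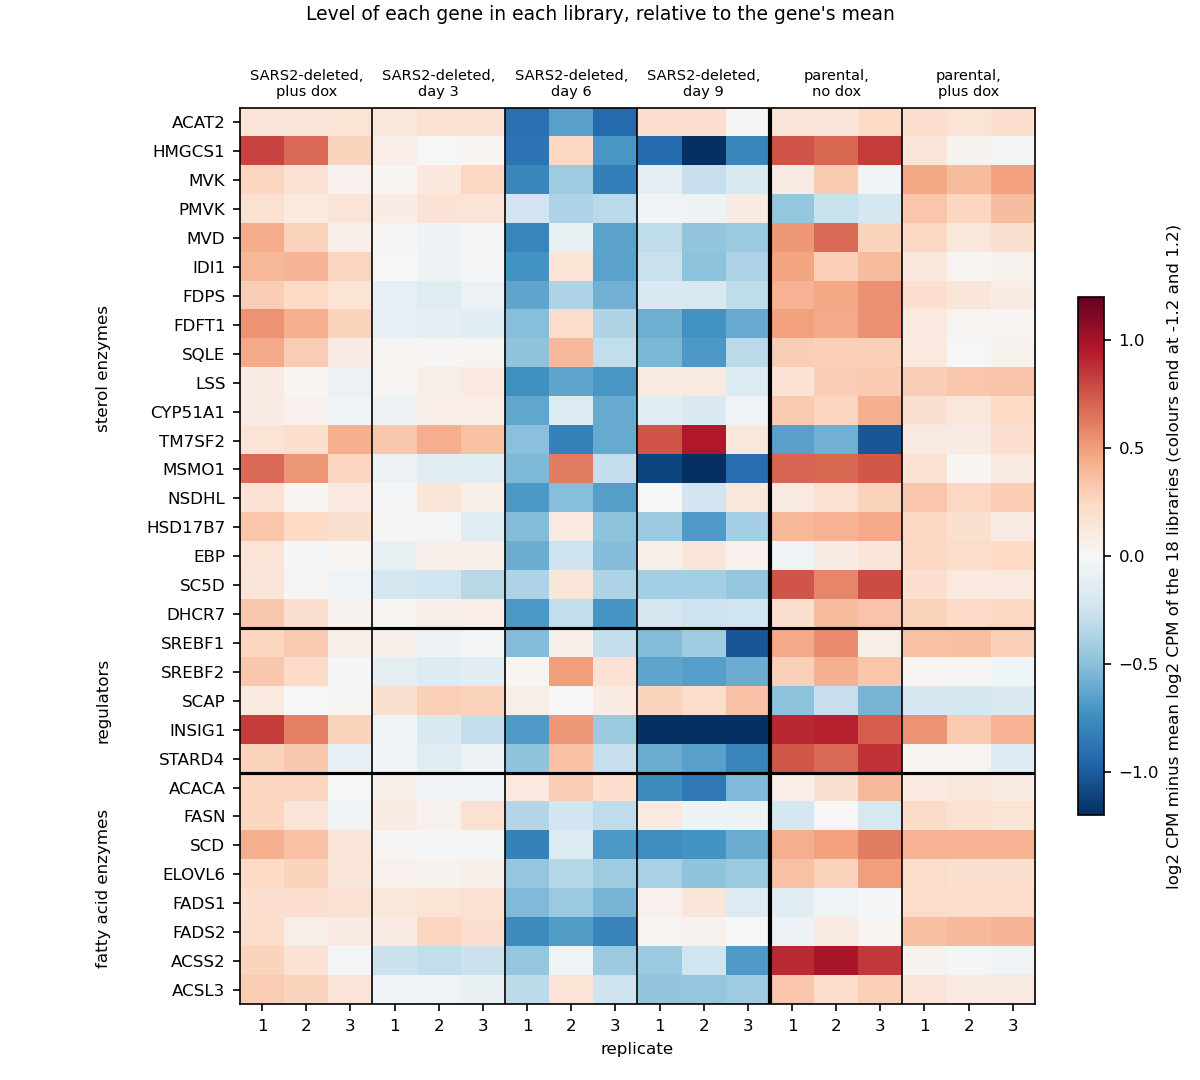
Level of each of the 31 genes (down the page, by class) in each of the 18 libraries (across, by group and replicate), as log2 CPM minus the gene's mean log2 CPM over the 18 libraries, with red for higher and blue for lower, and with colours ending at -1.2 and 1.2. Sterol enzymes are low in day 6 replicates 1 and 3, replicate 2 of day 6 is the highest of its group in 28 of the 31 genes, and HMGCS1, MSMO1 and INSIG1 are lowest at day 9.

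The sterol enzymes fell together at day 6 and split at day 9. At day 6, 15 of 18 sterol enzymes were lower than in the deleted line with doxycycline, none was higher and 3 did not pass the test, with a median log2 fold change of -0.70 against 0.0099 over all 21615 genes tested. Over the 3 classes, 24 of 31 members fell at day 6, in a comparison that called 28.1% of all genes (14.1% higher and 14.0% lower). At day 9, 11 sterol enzymes were lower, 1 was higher and 6 did not pass, with a median of -0.44, and over the 3 classes 21 of 31 members fell and 2 rose, where 46.3% of all genes were called (22.5% higher and 23.8% lower). Calls rest on edgeR's quasi-likelihood test, with p-values adjusted by Benjamini-Hochberg over all genes and a threshold of 0.05. In 22 members every day 6 library was below every doxycycline library and in none above, against 23.3% and 23.8% of all genes, and at day 9 this held for 23 below and 1 above, against 25.8% and 25.0%. These are bulk libraries, so fewer cells expressing a gene and less RNA per cell cannot be told apart.

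ACAT2, the cytosolic enzyme that joins a pair of acetyl-CoA molecules at the head of the pathway (chromosome 6, 159762045 to 159779112, plus strand, GRCh38), showed the simplest course. In the deleted line it had 147, 147 and 148 CPM with doxycycline, 145, 150.2 and 149 CPM at day 3, 71.0, 84.4 and 69.7 CPM at day 6 and 152, 152 and 133 CPM at day 9. All 3 day 6 libraries lay below every other library of that line, while day 3 and day 9 lay close to the doxycycline libraries. ACAT2 fell at day 6 on the log2 scale (-0.97 ± 0.069, adjusted p = 1.3e-08), and its day 9 value did not pass (-0.01 ± 0.068, adjusted p = 0.88). ACAT2 overlaps TCP1 and SOD2 on the other strand, and without a stated strand setting of the counting its reads cannot be told apart from theirs.

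HMGCS1, which makes the hydroxymethylglutaryl-CoA that mevalonate is formed from (chromosome 5, 43287470 to 43313412, minus strand), was lower still at day 9. Its levels were 506, 461 and 348 CPM with doxycycline, 305, 289 and 293 CPM at day 3, 156, 342 and 178 CPM at day 6 and 152, 123 and 167 CPM at day 9. All libraries without doxycycline lay below every library with it, day 6 replicate 2 by the smallest gap. HMGCS1 fell at day 6 (log2 -0.96 ± 0.24, adjusted p = 0.0081) and was also lower at day 9 (log2 -1.57 ± 0.24, adjusted p = 0.00011), and its day 3 value did not pass (-0.57 ± 0.23, adjusted p = 0.13). The day 6 call was lost when only the 2 groups compared were fitted (-0.96, adjusted p = 0.14).

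TM7SF2, a sterol reductase that acts after lanosterol (chromosome 11, 65111872 to 65116230, plus strand), went the other way from most enzymes at day 9. It had 32.2, 33.4 and 38.8 CPM with doxycycline, 36.0, 38.9 and 36.6 CPM at day 3, 20.3, 16.4 and 18.9 CPM at day 6 and 48.4, 56.1 and 31.7 CPM at day 9. The day 6 libraries were the lowest of the deleted line, and 2 of the 3 day 9 libraries were above every doxycycline library. TM7SF2 fell at day 6 (-0.91 ± 0.16, adjusted p = 0.00039) and rose at day 9 (0.39 ± 0.15, adjusted p = 0.049), the only member called in opposite directions on those days. The day 9 call was lost under 8 of the alternatives, including the omission of day 9 replicate 2 (0.21).

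MSMO1, the oxidase that removes methyl groups from sterols (chromosome 4, 165327669 to 165343164, plus strand), had an uneven day 6 group. It had 181, 163 and 136 CPM with doxycycline, 108, 103 and 102 CPM at day 3, 78.3, 174 and 93.3 CPM at day 6 and 52.8, 45.1 and 60.4 CPM at day 9. Day 6 replicate 2 was as high as the doxycycline libraries, whereas its 2 companions lay below all of them, and the day 9 libraries were the lowest. MSMO1 did not pass at day 6 (-0.48 ± 0.22, adjusted p = 0.13) and fell at day 9 (-1.60 ± 0.23, adjusted p = 5.6e-05). Without day 6 replicate 2 it was -0.91 at day 6. That library was the highest of its group, so its omission lowers the value by construction and is no separate test.

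The other sterol enzymes are given by their place in the pathway. In the mevalonate arm, log2 fold changes at day 6 were -0.83 for MVK, -0.46 for PMVK (phosphomevalonate kinase) and -0.74 for MVD (the decarboxylase that ends this arm), all called. For IDI1, which isomerises isopentenyl diphosphate, the value was -0.70, and for FDPS it was -0.76, both called. At day 9, MVK (-0.35), MVD (-0.68), IDI1 (-0.73) and FDPS (-0.46) were still called lower and PMVK (-0.15) was not. FDFT1, squalene synthase, was lower on both days (-0.60 at day 6 and -1.06 at day 9), and SQLE, squalene epoxidase, passed at day 9 (-0.81) but not at day 6 (-0.37). The day 6 calls of IDI1 (-0.69, adjusted p = 0.13) and FDFT1 (-0.60, adjusted p = 0.09) were lost in the edgeR fit of the 2 groups alone.

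Several enzymes past squalene were called lower at day 6 and no longer at day 9. LSS, which closes the sterol rings, had a log2 fold change of -0.71 ± 0.07 at day 6 (adjusted p = 9.8e-07) and one of 0.00 ± 0.069 at day 9. NSDHL (-0.73 at day 6, -0.13 at day 9), EBP (-0.50 and 0.03) and CYP51A1, the lanosterol demethylase (-0.48 and -0.15), were likewise called lower at day 6 and not called at day 9. With libraries scaled by their totals alone, NSDHL and CYP51A1 were called lower at day 9 as well. NSDHL and HSD17B7 take part in removing methyl groups from lanosterol. HSD17B7 was called lower on both days (-0.52 and -0.76), as was DHCR7, the reductase that yields cholesterol (-0.74 and -0.42). SC5D, a sterol desaturase, was called lower at day 9 (-0.46) and was at -0.22 at day 6, not called. Reads of HSD17B7 may be shared with a near-identical pseudogene, and MVK, IDI1, FDPS, FDFT1 and CYP51A1 overlap genes on the other strand.

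**Figure D2:**
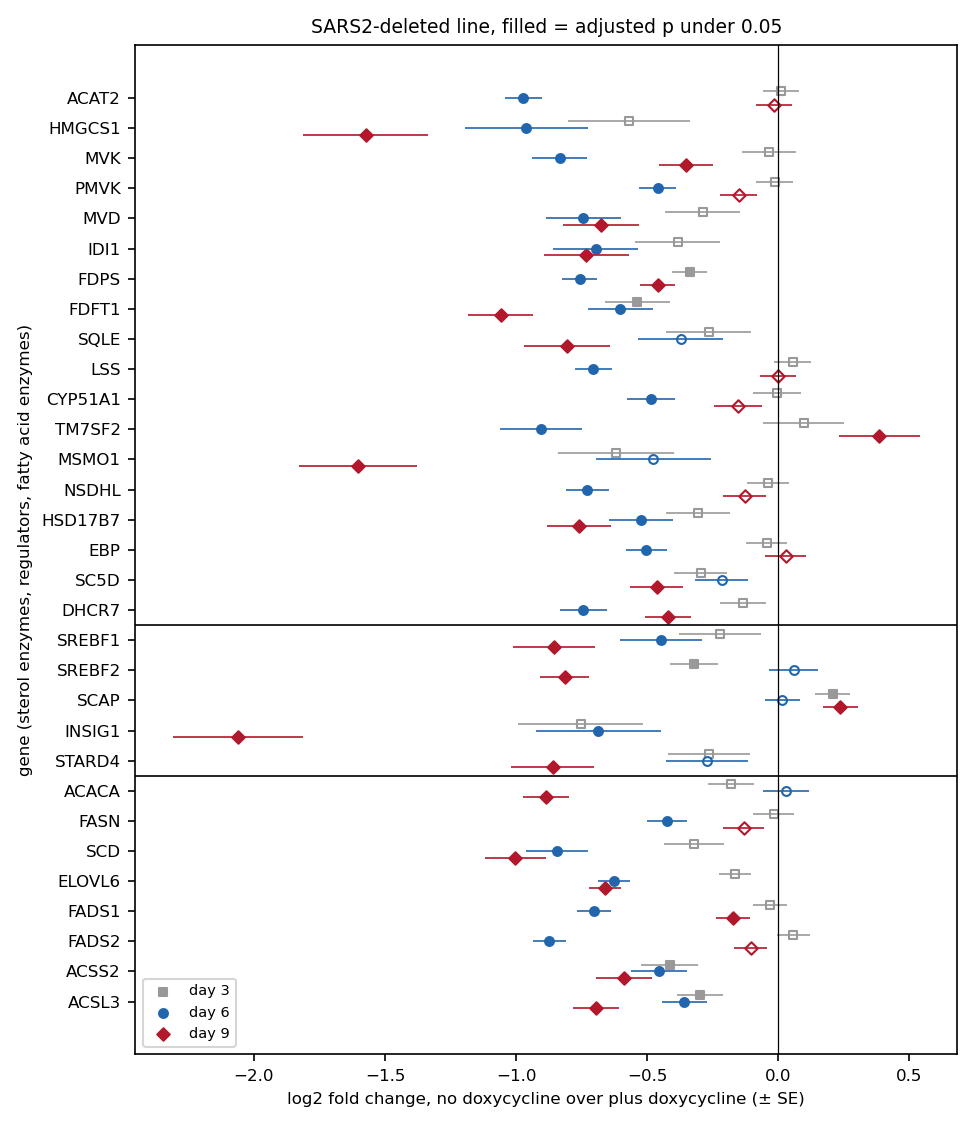
Log2 fold change of each of the 31 genes (down the page, by class) in the deleted line at day 3 (grey squares), day 6 (blue circles) and day 9 (red diamonds) over the same line with doxycycline, with bars for the SE and filled symbols for an adjusted p under 0.05. Most blue points lie left of 0, while red points range from -2.06 for INSIG1 to 0.39 for TM7SF2.

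Of the 5 regulators, 2 were lower at day 6 (SREBF1 and INSIG1), with a median of -0.27, where 14.0% of all genes were called lower. At day 9, 4 of the 5 were lower and SCAP was higher, with a median of -0.86. At day 9, 23.8% of all genes were called lower and 22.5% higher. INSIG1, which retains the SREBP and SCAP complex in the endoplasmic reticulum (chromosome 7, 155297878 to 155310235, plus strand), had 137, 118 and 93.2 CPM with doxycycline, 74.8, 68.3 and 63.6 CPM at day 3, 48.3, 111 and 57.0 CPM at day 6 and 28.5, 26.0 and 29.0 CPM at day 9. Every day 3 and day 9 library was below every doxycycline library, and at day 6 replicate 2 was within the doxycycline range while the others were below it. INSIG1 fell at day 9 (-2.06 ± 0.25, adjusted p = 1.5e-05), by more than any other of the 31 genes on that day. INSIG1 at day 6 (-0.69 ± 0.24, adjusted p = 0.047) lost its call under 8 alternatives (-0.68 to -0.47), and at day 3 (-0.75 ± 0.24) the adjusted p was 0.054.

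SREBF2, the precursor gene of the factor that mainly drives sterol enzymes (chromosome 22, 41833105 to 41907305, plus strand), did not follow the enzymes at day 6. It had 408, 380.1 and 323 CPM with doxycycline, 303, 291 and 295 CPM at day 3, 330.2, 460.4 and 366 CPM at day 6 and 209, 206 and 216 CPM at day 9. Its day 6 libraries overlapped the doxycycline libraries, and its day 9 libraries lay below all others of the deleted line. SREBF2 fell at day 3 (log2 -0.32 ± 0.093, adjusted p = 0.027) and again at day 9 (log2 -0.81 ± 0.093, adjusted p = 6.8e-07), and its day 6 value did not pass (0.06 ± 0.093, adjusted p = 0.68). The day 3 call was lost when any day 3 library or doxycycline replicate 1 or 2 was left out (-0.33 to -0.25). SREBF2-AS1 overlaps SREBF2 on the other strand.

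SREBF1, whose products drive fatty acid genes more than sterol genes (chromosome 17, 17811334 to 17836986, minus strand), had 121, 126 and 106 CPM with doxycycline, 106, 97.2 and 100.4 CPM at day 3, 70.9, 106 and 83.0 CPM at day 6 and 70.7, 75.3 and 49.7 CPM at day 9. The day 9 libraries were all below those with doxycycline, and at day 6 replicate 2 was within 1 CPM of the lowest of them. SREBF1 fell at day 9 (-0.86 ± 0.16, adjusted p = 0.00034), and its day 6 change (-0.45 ± 0.16, adjusted p = 0.044) lost its call under 8 alternatives (-0.52 to -0.33). SCAP, the sterol-sensing escort of SREBP (chromosome 3, 47413681 to 47477127, minus strand), had 134, 124 and 125 CPM with doxycycline, 142, 151 and 151 CPM at day 3, 131, 124 and 133 CPM at day 6 and 149.6, 144 and 159 CPM at day 9. Its day 3 and day 9 libraries were above every doxycycline library, and its day 6 libraries overlapped them. SCAP rose at day 3 (log2 0.21 ± 0.067, adjusted p = 0.045) and again at day 9 (log2 0.24 ± 0.067, adjusted p = 0.0062), with 0.02 at day 6. The day 3 call of SCAP was lost without any 1 of the 6 libraries compared (0.19 to 0.24).

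STARD4, which carries cholesterol between membranes (chromosome 5, 111496033 to 111512535, minus strand), had 54.0, 55.8 and 41.7 CPM with doxycycline, 43.5, 40.2 and 42.7 CPM at day 3, 32.0, 57.0 and 36.7 CPM at day 6 and 29.5, 28.4 and 25.7 CPM at day 9. All day 9 libraries were below all doxycycline libraries, and day 6 replicate 2 was above them. It fell at day 9 (-0.86 ± 0.16, adjusted p = 0.00027) and did not pass at day 6 (-0.27 ± 0.16, adjusted p = 0.22). At day 6 it was at -0.57 without replicate 2, the highest of its group, whose omission lowers the value by construction. SREBF1, SCAP and STARD4 also overlap genes on the other strand.

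**Figure D3:**
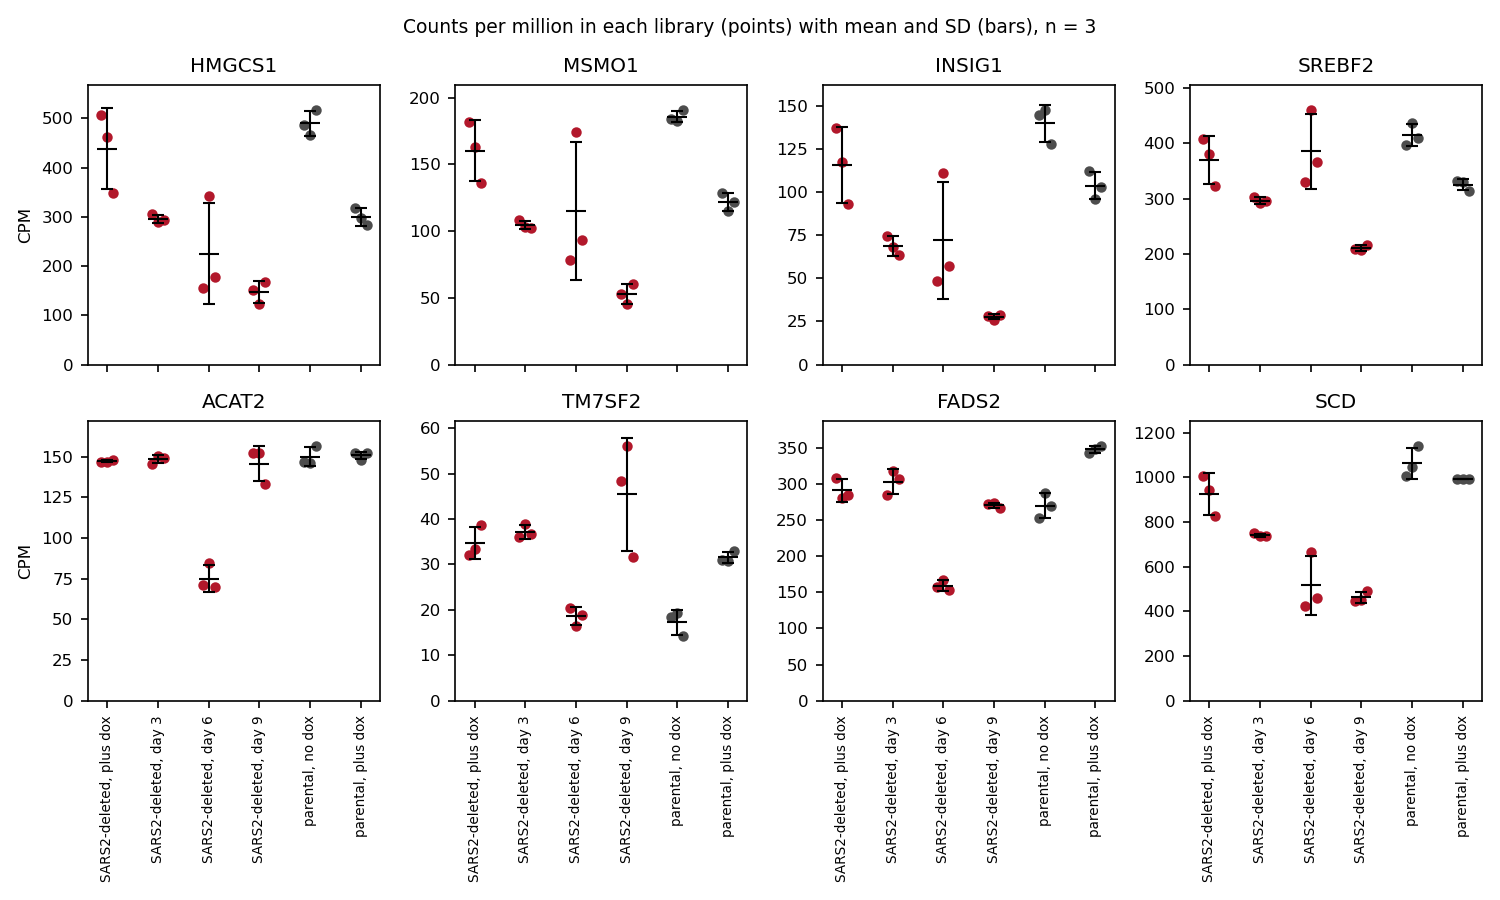
CPM of 8 genes in each library (points, replicates 1 to 3 from left to right, red for the deleted line and grey for the parental line), with the mean and SD of each group (n = 3) as bars. ACAT2, TM7SF2 and FADS2 are lowest at day 6 within the deleted line, whereas INSIG1, MSMO1, SREBF2 and HMGCS1 have their lowest mean at day 9 and a high second replicate at day 6.

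Among the fatty acid enzymes, 7 of 8 were lower at day 6 (median -0.54) and 6 of 8 at day 9 (median -0.62), and none was higher on either day. Of all genes, 14.0% were called lower at day 6 and 23.8% at day 9, and 14.1% and 22.5% higher. SCD (chromosome 10, 100347233 to 100364826, plus strand) had 1006, 944 and 824 CPM with doxycycline, 749, 736 and 735 CPM at day 3, 423, 664 and 459 CPM at day 6 and 444, 450.5 and 490.2 CPM at day 9. All libraries without doxycycline lay below every library with it. SCD fell at day 6 (log2 -0.84 ± 0.12, adjusted p = 4.1e-05) and was likewise lower at day 9 (log2 -1.0 ± 0.12, adjusted p = 1.5e-06), and its day 3 value did not pass (-0.32 ± 0.12, adjusted p = 0.074). FADS2, a desaturase of polyunsaturated fatty acids (chromosome 11, 61816203 to 61867354, plus strand), had 309, 281 and 285 CPM with doxycycline, 285, 319 and 307 CPM at day 3, 157, 168 and 153 CPM at day 6 and 273, 274 and 267 CPM at day 9. The 3 day 6 libraries stood apart below all others, and those of day 9 were just under the doxycycline range. FADS2 fell at day 6 (-0.87 ± 0.062, adjusted p = 1.3e-08) and was at -0.11 ± 0.062 at day 9 (adjusted p = 0.18).

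FADS1, the partner desaturase that overlaps FADS2 on the other strand (chromosome 11, 61799627 to 61817003, minus strand), had 259, 259 and 255 CPM with doxycycline, 247, 253 and 257 CPM at day 3, 156, 165 and 153 CPM at day 6 and 234, 249.6 and 202 CPM at day 9. Its 3 day 6 libraries were also below all others of the deleted line. FADS1 fell at day 6 (-0.70 ± 0.066, adjusted p = 4.9e-07), and its day 9 call (-0.17 ± 0.065, adjusted p = 0.034) was lost under 6 alternatives, among them the omission of day 9 replicate 3 (-0.087). ACACA, acetyl-CoA carboxylase, which makes the malonyl-CoA used by FASN (chromosome 17, 37084992 to 37406836, minus strand), had 323, 324 and 273 CPM with doxycycline, 283, 264 and 265 CPM at day 3, 294, 332 and 312 CPM at day 6 and 160.4, 149 and 188 CPM at day 9. All day 9 libraries lay below every doxycycline library (-0.89 ± 0.089, adjusted p = 1.3e-07), and the day 3 and day 6 libraries overlapped them. At day 6 the value of ACACA did not pass (0.03 ± 0.088, adjusted p = 0.84), and it turned to -0.19 with an adjusted p of 0.016 when trends of fold change with gene span and transcript length were removed.

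The other 4 fatty acid genes are given by their log2 fold changes. FASN was lower at day 6 (-0.42) and at -0.13 at day 9, not called. ELOVL6, which lengthens saturated fatty acids, was lower on both days by similar amounts (-0.63 and -0.66). ACSS2, which makes acetyl-CoA from acetate, was lower at day 3 (-0.41), day 6 (-0.45) and day 9 (-0.59). ACSL3, which activates long fatty acids, was likewise lower on the 3 days (-0.30, -0.36 and -0.70). The day 3 call of ACSL3 was lost without any day 3 library or without doxycycline replicate 1 or 2 (-0.30 to -0.26), and that of ACSS2 without day 3 replicate 2 or 3 or doxycycline replicate 1 or 2 (-0.42 to -0.35).

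At day 3 few members had passed the test. The libraries labelled day 3 had 1 member higher (SCAP) and 5 lower (FDPS, FDFT1, SREBF2, ACSS2 and ACSL3) than the deleted line with doxycycline, in a comparison that called 13.5% of all genes (6.56% higher and 6.90% lower). FDPS (-0.34 ± 0.067, adjusted p = 0.0027) and FDFT1 (-0.54 ± 0.12, adjusted p = 0.0087) were the sterol enzymes among them. The members had a median of -0.22, with 26 of 31 values below 0 and an all-gene median of -0.0024. In 16 of 31 members every day 3 library was below every doxycycline library, which held for 21.6% of all genes, and in 1 member every one was above, which held for 20.4%. The number called was 1 without doxycycline replicate 1 (FDPS), 2 without doxycycline replicate 2 or day 3 replicate 2 or 3, 3 without day 3 replicate 1, and 18 when only the 2 groups compared were fitted. The share of all genes called moved as well, to 5.5% without doxycycline replicate 1 and 30.1% with only the groups compared. Doxycycline replicate 1 was the highest of its group in 23 of 31 members and replicate 3 the lowest in 24, against 32.3% and 37.9% of all genes.

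Day 6 was also set against day 3. Of the 31, 17 were lower at day 6 than at day 3 and SREBF2 was higher (0.38 ± 0.093, adjusted p = 0.0024), where 42.6% of all genes were called (21.9% higher and 20.7% lower). TM7SF2 (-1.0 ± 0.16, adjusted p = 6.1e-05), ACAT2 (-0.98 ± 0.069, adjusted p = 3.5e-09) and FADS2 (-0.93 ± 0.062, adjusted p = 1.7e-09) changed most. No overlap, with every day 6 library lower, was seen in 17 members and with every one higher in 2, against 29.4% and 30.2% of all genes. Without day 6 replicate 2, the highest of its group in most members, 25 members were lower and 1 higher, where 35.1% of all genes were called. This omission lowers day 6 in those members by construction.

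Set against day 6, members at day 9 were called in both directions. Of the 31, 14 were higher at day 9 than at day 6, 11 were lower and 6 did not pass, where 58.6% of all genes were called (28.4% higher and 30.2% lower). The 14 were ACAT2, MVK, PMVK, FDPS, LSS, CYP51A1, TM7SF2, NSDHL, EBP, DHCR7, SCAP, FASN, FADS1 and FADS2. The 11 were HMGCS1, FDFT1, SQLE, MSMO1, SC5D, SREBF1, SREBF2, INSIG1, STARD4, ACACA and ACSL3, and the 6 were MVD, IDI1, HSD17B7, SCD, ELOVL6 and ACSS2. Sterol enzymes were on both sides, with 10 higher and 5 lower, whereas 4 of 5 regulators were lower and SCAP was higher. In 13 members every day 9 library was above every day 6 library and in 8 below, against 29.7% and 31% of all genes. For the members lower at day 9, both counts were close to the share over all genes.

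TM7SF2 (1.29 ± 0.16, adjusted p = 1.5e-06) and ACAT2 (0.96 ± 0.069, adjusted p = 6.2e-10) were the furthest above their day 6 level at day 9. INSIG1 (-1.38 ± 0.24, adjusted p = 0.00026) and MSMO1 (-1.13 ± 0.22, adjusted p = 0.00062) were the furthest below it, followed by ACACA (-0.92 ± 0.089, adjusted p = 2.6e-08) and SREBF2 (-0.87), and FADS2 was above it (0.77 ± 0.062, adjusted p = 2.5e-09). With libraries scaled by their totals alone, 11 were higher and 14 lower, where 58.4% of all genes were called. That scaling put the median of all genes at -0.145 in place of -0.018. With the span and length trends removed, 10 were higher and 12 lower, where 56.1% of all genes were called. ELOVL6 was then higher (0.35), and HSD17B7 and SCD were lower. EBP, FDPS, PMVK, CYP51A1, DHCR7 and ACSL3 were then not called, and 1 of these 6 turned sign. Without day 6 replicate 2, the highest of its group in most members, 16 were higher and 7 lower, where 53.3% of all genes were called. HMGCS1 (-0.18), SQLE (-0.13), SC5D (-0.055) and SREBF1 (-0.24) were then no longer called, while MVD and IDI1 became higher. HMGCS1 and SQLE also lost this call without day 9 replicate 1 or 2 (-0.63 to -0.50 and -0.41 to -0.36), SC5D without any day 9 library (-0.26 to -0.22), and SREBF1 without replicate 3 of day 6 (-0.44) or day 9 (-0.23).

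Day 6 replicate 2 stood apart from its 2 companions across the members. It was the highest of its group in 28 of 31 members (90.3%), against 36.4% of all genes. The ratio of its CPM to the mean of replicates 1 and 3 had a median of 1.1 (0.834 to 1.37) in the 14 genes higher at day 9 than at day 6, 1.57 (1.09 to 2.11) in the 11 genes lower, and 1.52 in the other 6. These ratios and the grouping by the calls of day 9 over day 6 share the day 6 libraries and are given as a description. Without this library 28 of 31 members were lower at day 6 than with doxycycline, where 20.6% of all genes were called in place of 28.1%. The additional members were SQLE (-0.69), MSMO1 (-0.91), SC5D (-0.42) and STARD4 (-0.57). INSIG1 was then at -1.15 and HMGCS1 at -1.40 at day 6. This library was singled out for its high member values, so leaving it out lowers the members at day 6 by construction. The count of 28 is therefore a description and not a separate test.

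Across the 31 genes, a higher value in that library went with a deeper fall at day 9. Spearman's rho between the log2 excess of day 6 replicate 2 over replicates 1 and 3 and the day 9 log2 fold change against doxycycline was -0.793, and it was -0.276 over 21615 genes. The parental change without doxycycline and the day 9 change had a rho of -0.74 over the members and -0.357 over all genes, and the parental change and the day 6 excess had 0.767 and 0.282. The 2 measures of each pair share no library, but the points are genes measured in the same libraries with 1 scaling and are not independent replicates, so no p is given.

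**Figure D4:**
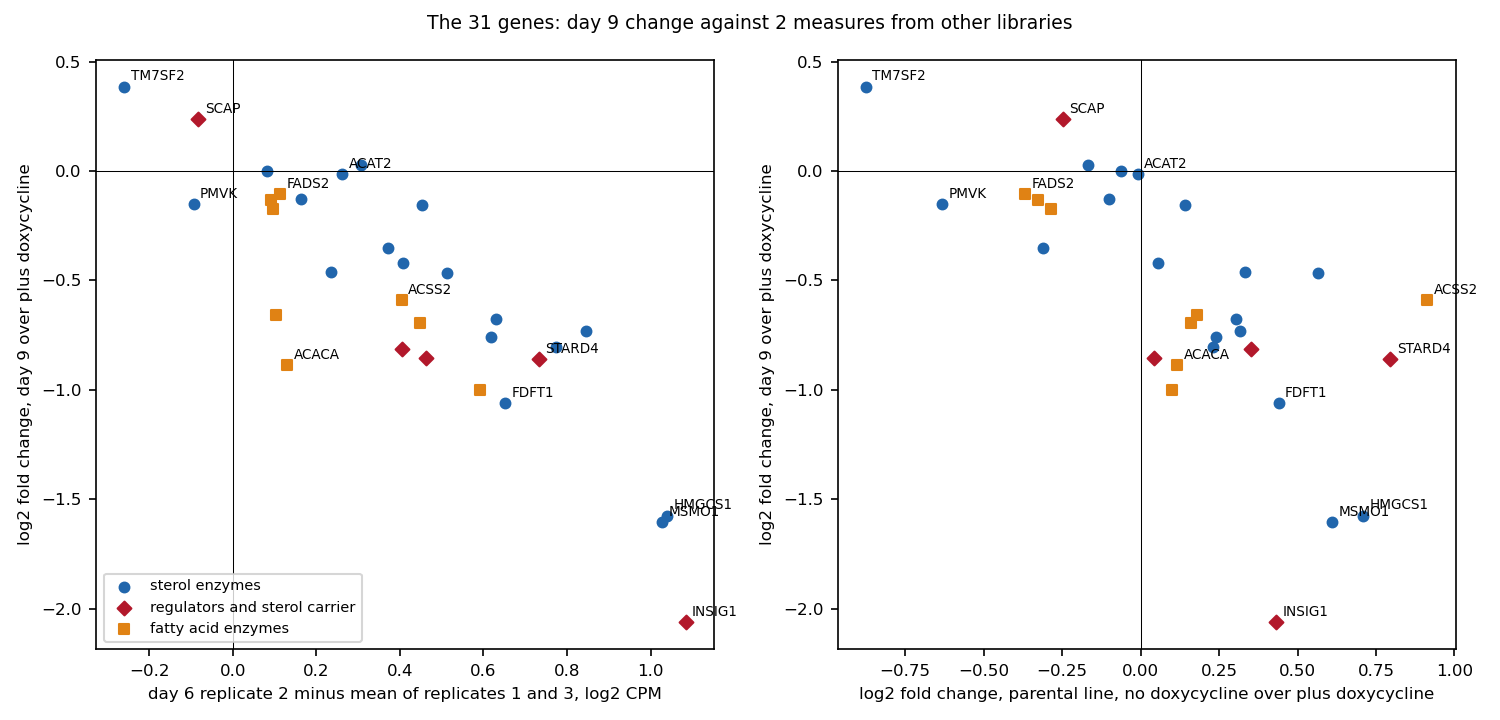
Day 9 log2 fold change over doxycycline in the deleted line (both vertical axes) for the 31 genes, against the log2 CPM excess of day 6 replicate 2 over replicates 1 and 3 (left) and against the log2 fold change without over with doxycycline in the parental line (right). INSIG1, HMGCS1 and MSMO1 lie lowest and to the right in both panels, TM7SF2 lies highest and farthest left, and the colours mark the 3 classes.

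In the parental line, both directions of change were found. Of the 31, 9 were higher, 7 were lower and 15 did not pass, where 39.2% of all genes were called (21.0% higher and 18.2% lower). ACSS2 had 84.6, 89.5 and 81.6 CPM without and 46.7, 45.1 and 44.0 CPM with doxycycline, TM7SF2 had 18.3, 19.2 and 14.1 CPM without and 31, 30.8 and 33.0 CPM with it, and STARD4 had 74.5, 71.5 and 81.5 CPM without and 45.6, 45.5 and 39.9 CPM with it. In each of these genes the 2 groups did not overlap, and over all members 17 lay above and 8 below with no overlap, against 28.5% and 24.9% of all genes. ACSS2 (0.91 ± 0.11, adjusted p = 2.5e-06) and STARD4 (0.80 ± 0.16, adjusted p = 0.00071) rose and TM7SF2 fell (-0.87 ± 0.16, adjusted p = 0.00028). The other members called higher were HMGCS1 (0.71), MSMO1 (0.61), SC5D (0.56), FDFT1 (0.44), SREBF2 (0.35), FDPS (0.33) and ELOVL6 (0.18). The other members called lower were MVK (-0.31), PMVK (-0.63), SCAP (-0.25), FASN (-0.33), FADS1 (-0.29) and FADS2 (-0.37). Leaving out any 1 of the 6 parental libraries ended the call of MSMO1 (0.57 to 0.65), and leaving out any but replicate 2 without doxycycline ended that of HMGCS1 (0.67 to 0.75). MVK lost its call without replicate 1 or 3 of either group (-0.30 to -0.24), and ELOVL6 without replicate 3 of either group or replicate 2 with doxycycline (0.11 to 0.17). With span and length trends removed, ELOVL6 (0.040) and SREBF2 (0.20) were not called. The log2 fold change was above 0 in 11 of 11 genes that were lower at day 9 than at day 6 in the deleted line, and in 3 of the 14 that were higher there. It was also above 0 in 6 of the 6 members not called between those days, so it was not particular to the 11. The same sorting was not counted over all genes, so these counts are not shown to be particular to the members. Over all genes, too, the parental change and the day 9 change against doxycycline were inversely related (Spearman's rho -0.357). INSIG1 had 145, 148 and 128 CPM without and 112, 96.4 and 103 CPM with doxycycline, which did not overlap, but did not pass the test (0.43 ± 0.24, adjusted p = 0.17).

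With doxycycline in both lines, 2 members were higher and 2 lower in the deleted line than in the parental line, where 19.3% of all genes were called (9.29% higher and 10% lower). LSS had 194, 185 and 173 CPM in the deleted line and 224, 229 and 231 CPM in the parental line (-0.31 ± 0.07, adjusted p = 0.0035). FADS2 had 309, 281 and 285 CPM in the deleted line and 343, 349.7 and 353 CPM in the parental line (-0.26 ± 0.062, adjusted p = 0.0054). The 2 lines did not overlap in either gene, and over all members 5 lay above and 9 below with no overlap, against 22% and 22.9% of all genes. FDFT1 (0.36 ± 0.12, adjusted p = 0.047) and SCAP (0.24 ± 0.067, adjusted p = 0.015) were higher in the deleted line, and FDFT1 lost its call under 7 alternatives (0.30 to 0.39). The count of 4 was 14 when only these 2 groups were fitted, where 34.1% of all genes were called, and 2 without deleted-line replicate 1 or parental replicate 1 or 2, the calls left being LSS and FADS2.

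The change in the deleted line was also tested against the parental change, as a difference of log2 fold changes. At day 3, 15 of 31 members had a lower change in the deleted line and 6 a higher one, where 39.3% of all genes were called (18.4% higher and 20.9% lower). ACSS2 (-1.33 ± 0.15, adjusted p = 1.8e-06), FDPS (-0.67 ± 0.095, adjusted p = 1.7e-05) and SC5D (-0.86 ± 0.14, adjusted p = 9.2e-05) were lower and PMVK was higher (0.62 ± 0.10, adjusted p = 6.7e-05). At day 6, 22 members were lower and none higher, where 12.8% of all genes were called (5.55% higher and 7.24% lower). FDPS (-1.09 ± 0.10, adjusted p = 1.1e-06), ACAT2 (-0.96 ± 0.10, adjusted p = 8.4e-06), ELOVL6 (-0.80 ± 0.086, adjusted p = 1.7e-05) and ACSS2 (-1.37 ± 0.15, adjusted p = 2.4e-05) had the smallest p-values. At day 9, 19 were lower and 4 higher, where 51.4% of all genes were called (24.1% higher and 27.3% lower). INSIG1 had the largest difference (-2.49 ± 0.34, adjusted p = 3.5e-05), and TM7SF2 (1.26), SCAP (0.48), PMVK (0.48) and FADS2 (0.26) were the 4 higher. FADS2 lost this call with libraries scaled by their totals alone, and without parental replicate 1 of the cells lacking doxycycline (0.21). The 3 tests share the parental groups and the doxycycline group of the deleted line.

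Log2 fold changes were weakly related to gene span over all genes, with Spearman's rho of 0.185 at day 6 and -0.136 at day 9 in the deleted line and 0.145 in the parental line. With the trends of fold change on span and transcript length removed, 23 members were lower at day 6, where 25.8% of all genes were called. At day 9, 24 were then lower and 1 higher, where 45% of all genes were called. PMVK, CYP51A1 and FASN were called lower at day 9 in that fit and not in the main fit.

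Genes that adjoin the pathway were read in 6 further lists. Over all genes, 14.1% were called higher and 14.0% lower at day 6, and 22.5% higher and 23.8% lower at day 9. Of 5 tested other sterol genes, 3 were lower at day 6 and 3 at day 9, among them TMEM97, a binder of the cholesterol transporter of lysosomes (-0.55 at day 6), and LPIN1, which makes diacylglycerol (-0.35 at day 9). Of the 6 genes for SREBP processing and sterol sensing that are reported here, 1 was higher and 1 lower at day 6 (ERLIN1 0.24 and ERLIN2 -0.29, relatives that take part in degrading sterol sensors), and 2 were lower at day 9. INSIG2, the relative of INSIG1, fell at day 9 (-0.41 ± 0.089, adjusted p = 0.00077), as did MBTPS2, a protease that cleaves SREBP (-0.26).

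Of 7 genes for sterol efflux, storage and the LXR receptors, none was higher and 3 were lower at day 6, and 2 were higher and 3 lower at day 9, where 28.1% of all genes were called at day 6 and 46.3% at day 9. NR1H3, which encodes an LXR receptor, was at -0.60 at day 6 and 0.34 at day 9, both called. LPCAT3, a phospholipid acyltransferase, was lower at day 6 (-0.54), as was SOAT1, which esterifies cholesterol (-0.14). MYLIP, a ubiquitin ligase induced by LXR, was lower at day 9 (-0.49). ABCG1, a sterol exporter, was called lower at day 9 (-2.72 ± 0.66, adjusted p = 0.0019) from levels under 1 CPM in every library. Of 7 genes for sterol traffic, 1 was higher and 1 lower at day 6, close to the share over all genes, and 1 higher and 5 lower at day 9. STARD3, a sterol carrier of late endosomes, was higher at day 6 (0.42) and NPC2 lower (-0.29). NPC2, which lifts cholesterol out of the lysosome (-0.72 ± 0.093, adjusted p = 3.1e-06), OSBPL1A (-0.56) and LIPA, the lysosomal lipase (-0.53), fell at day 9.

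Of 14 tested other fatty acid and phospholipid genes, 2 were higher and 5 lower at day 6 (14.1% and 14.0% of all genes), and 3 higher and 8 lower at day 9 (22.5% and 23.8%). GPAM, which starts glycerolipid synthesis, fell at day 6 (-0.40), and MLXIPL, a glucose-sensing transcription factor, was higher at day 6 (0.80) and lower at day 9 (-0.63). SCD5, a relative of SCD (-0.50), and ELOVL7, a relative of ELOVL6 (-0.43), were lower at day 9. Of 9 genes on branches of the mevalonate pathway, 1 was higher and 4 lower at day 6, and 3 higher and 2 lower at day 9, against 28.1% and 46.3% of all genes called. DHDDS, which makes dolichol, was lower at day 6 (-0.39) and higher at day 9 (0.44), as was PDSS1, which makes the side chain of coenzyme Q (-0.37 and 0.58). GGPS1, which makes geranylgeranyl diphosphate, was lower on both days (-0.27 and -0.44). FNTB, a subunit of farnesyltransferase, was higher at day 9 (0.66) and COQ2, of coenzyme Q synthesis, lower (-0.45).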

How the data were processed

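Raw counts of reads per gene, with no normalization, were deposited by the authors in 3 tables. Tools named in the submitters' processing notes are cutadapt 2.3, HISAT2, SAMtools, Subread with featureCounts, and DESeq2, with the build GRCh38. Count columns carry HISAT2_RF in their names, per the file headers, and RF is also the name of a strand setting of HISAT2. Whether counting used strand, and the annotation release: not given in the sources used here. Lines broken within 16 genes were rejoined. The 6 libraries present in 2 tables had equal values and were used a single time.

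All 18 libraries entered a single fit with edgeR 4.0.16 (R 4.3.3), using TMM scaling, filterByExpr by group (21615 genes kept), a mean for each group and robust quasi-likelihood tests. For each of 10 comparisons, p-values were adjusted by Benjamini-Hochberg over all genes and called under 0.05. CPM and RPKM were computed here from the deposited counts, RPKM with the exon length in the tables. No label says that replicates were separate cultures, so the p-values reflect the spread between these samples alone, which may be technical. Replicate libraries differed by more than sampling noise. With at least 66850705 counts per library and members at 14.1 CPM or more, replicate spread sets the precision. Alternatives were the DESeq2 1.42.0 Wald test, DESeq2 size factors in edgeR, library totals alone, no filter on low counts, a replicate block, removal of trends with gene span and transcript length (lowess, span 0.3), only the groups compared, and each replicate left out. The scripts were tested on simulated data.

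Members and lists were chosen with earlier results of these data known. Full values are given for the 5 regulators, the 3 sterol and 3 fatty acid enzymes with the largest called change at day 6, the 2 of each class with the largest called change between day 6 and day 9, and any member called in opposite directions at day 6 and day 9. For other comparisons the 3 largest called changes are named (for interactions, the 4 smallest p-values), and for further lists up to 3 genes at each of day 6 and day 9. Some genes of the further lists are not reported here. The 37 mitochondrial genes had counts of 0 in every library. Promoter windows come from RefSeq (GRCh38.p14).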

Additional observations from a re-analysis of the deposited data

Results flagged for a closer look

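In the following genes the change without doxycycline differed between the 2 lines by edgeR's test of the interaction, given as the change in the deleted line minus that in the parental line (with its SE). They have the 4 smallest p-values among members on each day. ACSS2 differed at day 3 (log2 -1.33 ± 0.15, adjusted p = 1.8e-06), at day 6 (log2 -1.37 ± 0.15, adjusted p = 2.4e-05) and at day 9 (log2 -1.50 ± 0.15, adjusted p = 9.3e-08). Its own changes were -0.41, -0.45 and -0.59 in the deleted line on these days and 0.91 in the parental line. FDPS differed at day 3 (log2 -0.67 ± 0.095, adjusted p = 1.7e-05), at day 6 (log2 -1.09 ± 0.10, adjusted p = 1.1e-06) and at day 9 (log2 -0.79 ± 0.10, adjusted p = 7.7e-07), with -0.34, -0.76 and -0.46 in the deleted line and 0.33 in the parental line.

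ELOVL6 differed at day 6 (log2 -0.80 ± 0.086, adjusted p = 1.7e-05) and at day 9 (log2 -0.84 ± 0.086, adjusted p = 1.1e-07), with -0.63 and -0.66 in the deleted line and 0.18 in the parental line. PMVK (0.62 ± 0.10, adjusted p = 6.7e-05) and SC5D (-0.86 ± 0.14, adjusted p = 9.2e-05) differed at day 3, where PMVK was at -0.01 in the deleted line and -0.63 in the parental line, and SC5D at -0.30 and 0.56. ACAT2 differed at day 6 (-0.96 ± 0.10, adjusted p = 8.4e-06) and SREBF2 at day 9 (-1.17 ± 0.13, adjusted p = 3.5e-07). ACAT2 was at -0.97 in the deleted line and -0.01 in the parental line, and SREBF2 at -0.81 and 0.35. The labels do not give the number of days without doxycycline in the parental line, so the days could not be matched.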

How the results depend on the processing

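Of 148 recomputed counts of members called, 136 were within 1.5 times the reported count, and of 904 recomputed values of single members, 822 kept their direction and their side of the threshold, 51 lost a call, 20 gained one and 11 turned sign. The count at day 3 was 15 with no filter on low counts and 18 with only the groups compared, and the count between the lines with doxycycline was 9 and 14 in those fits. The share of all genes called was 9.04% and 30.1% at day 3 in those fits, and 12.2% and 34.1% between the lines. With each replicate left out in turn, counts ran from 1 to 8 at day 3, 22 to 28 at day 6, 21 to 24 at day 9, 17 to 26 for day 6 over day 3, 22 to 27 for day 9 over day 6, 12 to 15 in the parental line, 2 to 5 between the lines, and 17 to 21, 19 to 26 and 22 to 25 for the interactions at days 3, 6 and 9. The share of all genes called moved too when a replicate was left out. It ran from 5.36% to 12.3% at day 3, from 31.7% to 38% in the parental line and from 12.2% to 18.2% between the lines. At day 6 it was 18.2% without doxycycline replicate 3 and 27.3% without day 6 replicate 1. With only 2 libraries in a group the spread is pooled over all groups. The 11 values that turned sign were never called as reported. With span and length trends removed they were SREBF2 (-0.046), SCAP (-0.073) and ACACA (-0.19) at day 6. With a replicate left out they were SREBF2 at day 6 (-0.097 to 0.15), SCAP at day 6 (-0.014 to 0.052), ACACA at day 6 (-0.054 to 0.071) and ACAT2 at day 9 (-0.046 to 0.051). These 904 values do not cover every member in every comparison. Outside them, 6 members lost the call of day 9 over day 6 with those trends removed, and 1 of the 6 turned sign. The causes were not tested.

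With library totals alone, the median log2 fold change of all genes was 0.077 at day 6, and 29% of all genes were called. Of the genes called at day 6, 64.4% were higher, against 50% with TMM, while the members were 22 lower and none higher. At day 9, 25 members were lower and 1 higher with library totals alone, where 46.5% of all genes were called. PMVK, CYP51A1, NSDHL and FADS2 were called lower there and not with TMM. For day 9 over day 6, 38.5% of the genes called were higher, against 48.5% with TMM. The labels do not say whether the replicate numbers pair the samples. Deviations of same-numbered libraries from their group means had correlations of -0.078 to 0.070. Differently numbered libraries were not compared, so these values alone cannot decide whether a number marks a shared culture or day. With a replicate block the counts were 5, 24 and 22 at days 3, 6 and 9, 18 for day 6 over day 3, 23 for day 9 over day 6, 15 in the parental line, 3 between the lines and 20, 20 and 23 for the interactions. In the same order, the shares of all genes called were 12.7%, 27.1%, 45.7%, 41.9%, 57.9%, 38.7%, 18.9%, 38.6%, 12.1% and 50.7%. Depth limits none of the members, which all had at least 14.1 CPM in every library.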
